A study of Mus musculus with 24 samples.

Results

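The ovaries of control mice were compared between embryonic day 17.5 (ED17.5) and postnatal day 1 (PND1), the interval around birth in which mouse oocytes complete recombination, arrest, and begin to be enclosed in primordial follicles. The comparison used 8 of the 24 libraries of the study: 4 of control ovaries at ED17.5 and 4 of control ovaries at PND1, chosen by the age and genotype in their labels. The study measured polyadenylated RNA of whole mouse ovaries with and without steroidogenic factor 1 (SF-1, encoded by Nr5a1) at ED17.5, PND1 and PND4. Controls were littermates with the genotype Nr5a1 f/f, Amhr2-cre +/+: they carry the floxed Nr5a1 alleles at both ages but no Cre transgene. The knockout (cKO) ovaries, used here only for comparison, were Nr5a1 f/f, Amhr2-cre Tg/+, with Cre under the control of Amhr2, the anti-Müllerian hormone receptor gene, which is active in ovarian somatic cells and not in oocytes. Each library was a pool of ovaries within an age and genotype, from 5 mice at ED17.5 and from 3 to 5 mice at PND1, so the replicates are pools and the spread between single animals is not in the data. Whether the 4 pools of an age came from different litters is not stated, and p-values measure the spread between these pools.

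At this age nearly all germ cells of the mouse ovary are oocytes in meiotic prophase I. They pair and recombine their chromosomes, reach the diplotene stage and arrest there, while the germ cell cysts break down and single oocytes are surrounded by flattened pregranulosa cells. The oocyte then switches on a transcription programme under SOHLH1, LHX8, NOBOX and FIGLA that makes the zona pellucida, its glycoprotein coat, and stores maternal products for the embryo. In whole tissue, fewer cells of a type and less RNA per cell of that type cannot be told apart, here and in every result that follows.

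Genes of the zona pellucida and of maternal effect rose between the ages, and 3 of their promoters are shown because they hold E-boxes, the class of element that helix-loop-helix factors such as FIGLA bind. The sequences are the 250 bases before the transcription start in RefSeq (GRCm38.p6), read 5′ to 3′ on the strand of the gene, with every CANNTG in capitals. The element is palindromic in form, so both strands were searched at once. The Zp3 window lies at chr5:135979855-135980104 on the plus strand, the Padi6 window at chr4:140742644-140742893 on the minus strand and the Ooep window at chr9:78378589-78378838 on the minus strand.
Zp3: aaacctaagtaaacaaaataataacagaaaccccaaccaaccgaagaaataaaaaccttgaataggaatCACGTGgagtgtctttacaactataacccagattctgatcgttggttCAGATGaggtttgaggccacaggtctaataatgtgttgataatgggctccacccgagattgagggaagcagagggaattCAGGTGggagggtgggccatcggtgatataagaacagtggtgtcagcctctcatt
Padi6: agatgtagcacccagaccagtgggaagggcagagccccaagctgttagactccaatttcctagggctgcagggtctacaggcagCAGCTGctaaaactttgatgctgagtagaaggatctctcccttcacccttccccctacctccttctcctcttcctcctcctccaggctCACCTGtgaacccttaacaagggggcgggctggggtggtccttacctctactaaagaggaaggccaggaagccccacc
Ooep: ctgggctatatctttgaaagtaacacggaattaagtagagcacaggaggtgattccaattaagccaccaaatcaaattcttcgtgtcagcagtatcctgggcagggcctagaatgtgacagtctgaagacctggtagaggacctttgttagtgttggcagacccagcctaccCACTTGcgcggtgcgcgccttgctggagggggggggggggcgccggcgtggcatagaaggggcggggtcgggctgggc
Zp3 held 3 matches, whose bases nearest the 5′ end lie at -181, -134 and -55 from the start. Padi6 held 2, at -166 and -78, and Ooep held 1, at -78. The element is common: 57.7% of the 11981 windows of tested genes held it, against 9 of 11 windows of maternal-effect genes and both windows of zona pellucida and oocyte-secreted factors. A match is a description of the letters and not of a bound site.

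The 8 libraries held 11510309 to 13455617 counts, with 23428 to 24527 genes at a count or more, and 3 counts corresponded to 0.225 to 0.259 CPM, the unit of level used here. CPM are deposited counts relative to library sizes scaled with edgeR's TMM factors. The 2 ages separated on the first principal component, which held 74.4% of the variance, and replicates differed by more than sampling noise (chi-square per degree of freedom 3.83 to 20.1 over 12 pairs). Markers of the labelled tissue were present: Foxl2, the transcription factor that defines female supporting cells, and Ddx4, the germ cell RNA helicase, had at least 87.8 CPM in every library, and Sox9, the Sertoli cell factor, measured 10.2, 7.32, 6.54 and 8.37 CPM at ED17.5 and 5.84, 5.86, 8.03 and 7.41 CPM at PND1. Nr5a1 itself, floxed but not deleted in these animals, measured 153, 149, 121 and 167 CPM at ED17.5 and 115, 129, 149.7 and 153 CPM at PND1 and did not pass the test (log2 change -0.11 ± 0.11, adjusted p = 0.432).

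The ED17.5 libraries also held transcripts of liver and blood. The 27 hepatocyte genes together measured 2344, 1905, 943 and 981 CPM in the 4 ED17.5 libraries (replicates 1 to 4, the order used throughout) and 72.2 to 101 CPM at PND1. The sum of 19 erythroid genes was 7572, 5065, 4748 and 3818 CPM at ED17.5 and 408, 2027, 1079 and 356 CPM at PND1. Alb, which encodes serum albumin (GRCm38 chr5:90460897-90476602), measured 925, 773, 346 and 347 CPM at ED17.5 and 5.68, 1.12, 10.8 and 15.2 CPM at PND1. ED17.5 replicates 1 and 2 held the most liver signal and replicates 3 and 4 less, and the PND1 libraries differed in erythroid signal, with replicate 2 highest. PND1 replicate 1 held the most germ cell transcripts of its age: the 15 germ cell genes of all stages summed to 3093 CPM there and to 2175 to 2368 CPM in the other PND1 libraries. Without it 8308 genes changed, 4243 of them higher and 4065 lower. Leaving the erythroid and hepatocyte genes out of the library sizes and scaling gave 8375 changed genes against 8381 with them. With only ED17.5 replicates 3 and 4 kept, an alternative chosen after seeing the data, 6202 genes changed.

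**Figure D1:**
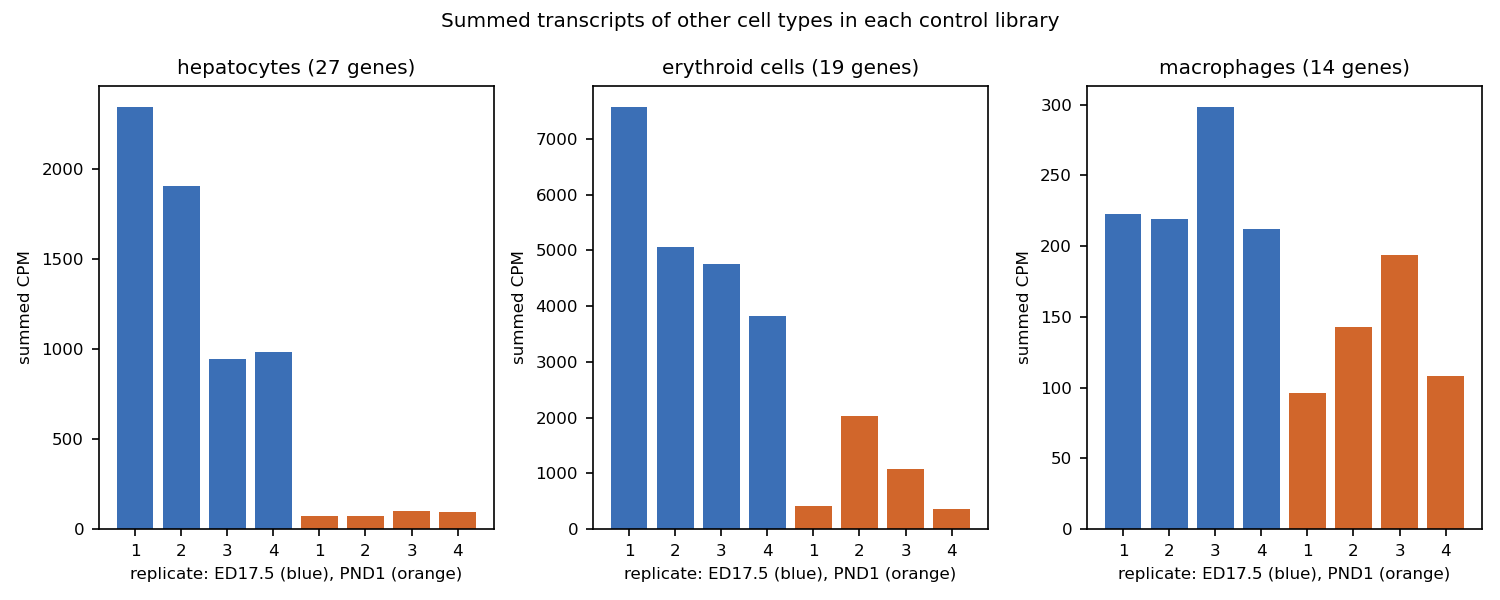
Summed CPM of the hepatocyte, erythroid and macrophage gene lists in each control library (bars, replicates 1 to 4; blue ED17.5, orange PND1). Hepatocyte genes sum to 943 to 2344 CPM at ED17.5 and 72.2 to 101 CPM at PND1, and erythroid genes to 3818 to 7572 and 356 to 2027 CPM.

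Of 16078 genes tested with edgeR's quasi-likelihood test, 8381 changed between the ages at a Benjamini-Hochberg adjusted p under 0.05, which is 52.1% of those tested. Of these, 4193 rose (26.1%) and 4188 fell (26.0%), and the median log2 change of all genes tested was -0.02. A change of at least 2-fold was found for 2062 genes, of which 957 rose and 1105 fell. The counts for gene lists below are read against these shares. A list with a share near 26.0% called in a direction holds no excess of calls over the table as a whole, although its median can still differ. Of the 146 tested genes that stand as anchors of the lists, 53 rose, 45 fell and 48 did not pass; the genes described here include 92 of the 146, of which 17 did not pass, so the genes that passed are named more fully than those that did not. In 49.6% of the genes tested, the 4 values of an age did not overlap the 4 of the other. Replicates 1 and 3 of both ages carry the numbers 13 to 24 in the sample descriptions and replicates 2 and 4 the numbers 1 to 12. What the number stands for is not stated. With these sets alone, 2 libraries of each age remain, and 6926 genes changed within the numbers 1 to 12 and 4301 within 13 to 24.

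**Figure D2:**
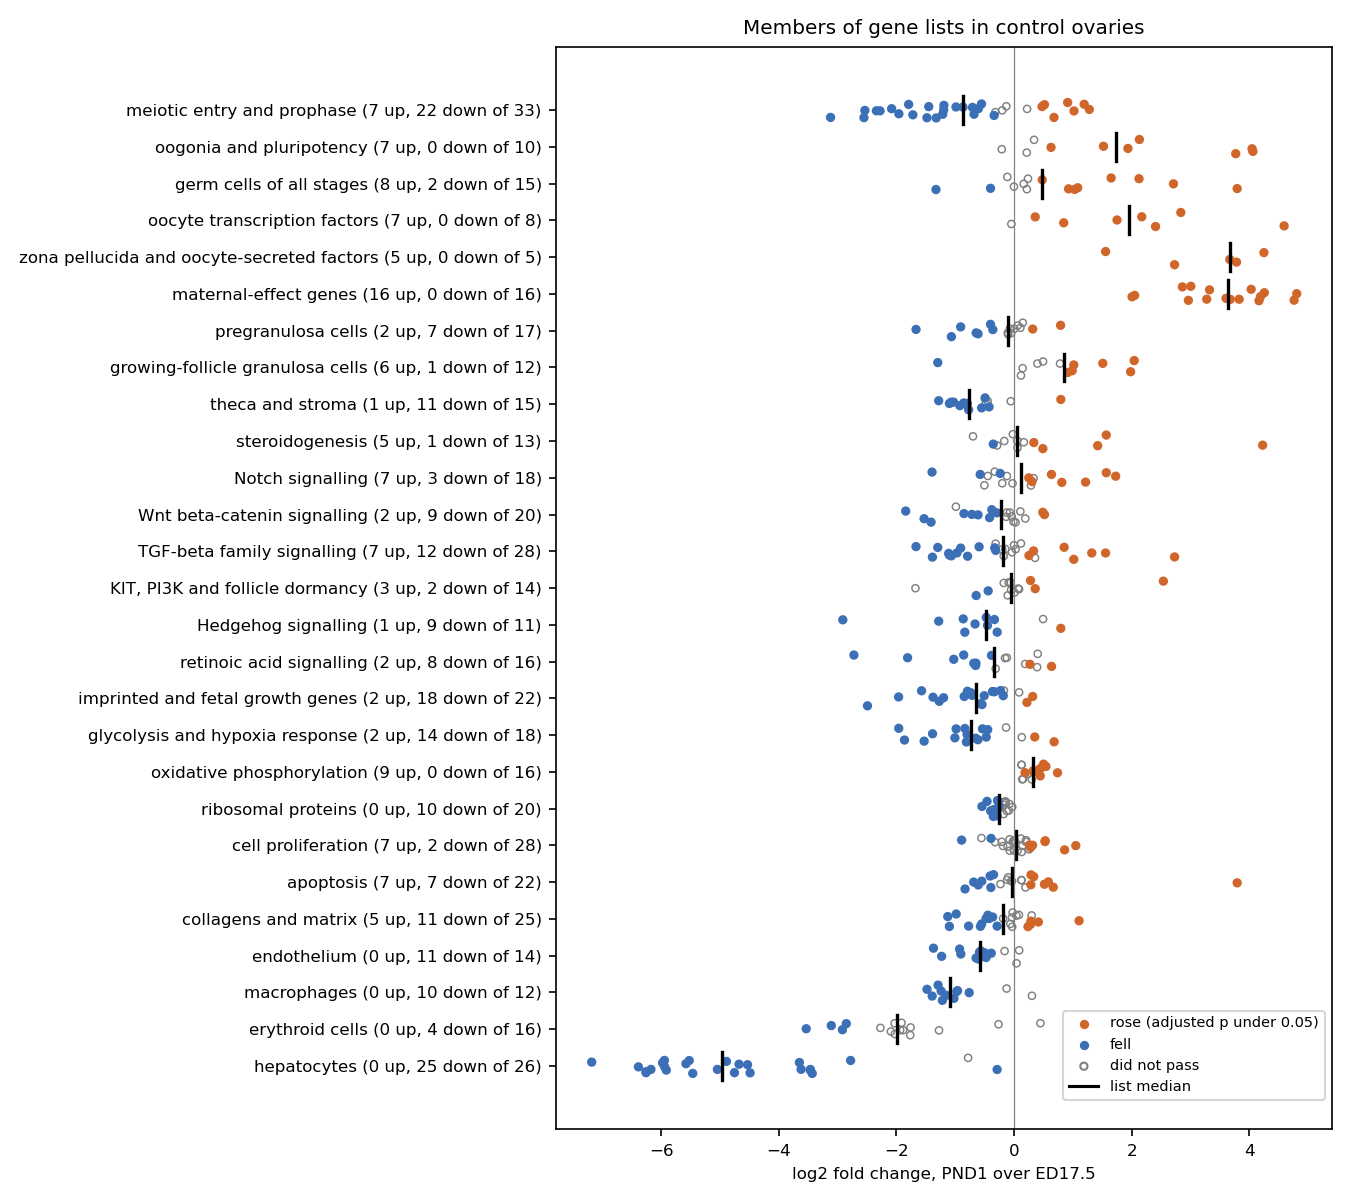
Log2 fold change from ED17.5 to PND1 (x axis) of each tested member of 27 gene lists (rows), 4 against 4 control libraries; filled points passed an adjusted p under 0.05, open points did not, and vertical bars are list medians. Oocyte lists lie to the right (maternal-effect median 3.64), hepatocyte genes to the left (median -4.97).

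Genes of meiotic prophase formed the germ cell list with the most falls. Of 33 tested members, 22 fell and 7 rose, against 26.0% and 26.1% of all genes tested, and the median change was -0.87. Within the libraries numbered 13 to 24, 16 fell and the median was -0.43, and within those numbered 1 to 12 these were 23 and -1.02. With only ED17.5 replicates 3 and 4 kept, 4 rose. In 27 of the 33 the ages did not overlap, against 49.6% of all genes; the remaining member was under the filter on low counts. Spo11, the topoisomerase-like protein that makes the double-strand breaks of meiotic recombination (chr2:172977700-172993576), measured 28.6, 37.4, 27.6 and 33.8 CPM at ED17.5 and 4.42, 3.36, 3.30 and 3.54 CPM at PND1. Every ED17.5 value was above every PND1 value, and Spo11 fell by 3.12 ± 0.14 (adjusted p = 3.26e-08) on the log2 scale (± SE here and below). Dmc1, the recombinase that repairs these breaks from the homologous chromosome, measured 25.4, 26.9, 16.2 and 31.0 CPM at ED17.5 and 8.76, 7.50, 6.46 and 5.98 CPM at PND1. It fell by 1.79 ± 0.19 (adjusted p = 1.80e-05), again without overlap. Hfm1, a helicase needed for crossovers, measured 99.4, 140.4, 100.4 and 134 CPM at ED17.5 and 22.3, 20.7, 15.8 and 22.2 CPM at PND1 and fell by 2.55 ± 0.15 (adjusted p = 4.01e-07).

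Other recombination genes moved the same way. Meiob and Spata22, which act together on single-stranded DNA in recombination, went from 21.5 to 5.51 CPM and from 8.69 to 1.78 CPM, log2 changes of -1.96 ± 0.17 and -2.28 ± 0.21. Majin, which ties telomeres to the nuclear envelope in prophase, fell from 8.76 to 1.51 CPM (-2.54 ± 0.18), and Sycp2, an axis component of the synaptonemal complex, from 124 to 29.3 CPM (-2.08 ± 0.12). Prdm9, the histone methyltransferase that places recombination hotspots, measured 12.7, 13.8, 7.09 and 16.3 CPM at ED17.5 and 8.18, 6.29, 6.61 and 6.15 CPM at PND1. Its ages overlapped, with ED17.5 replicate 3 at the level of the PND1 libraries, and it fell by 0.87 ± 0.22 (adjusted p = 0.00598). Within the libraries numbered 13 to 24 its change was -0.40 and did not pass (adjusted p = 0.379).

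Not all of the synaptonemal complex followed. Sycp3, its axial element protein, measured 154, 179, 172 and 221 CPM at ED17.5 and 386, 267, 258 and 250.5 CPM at PND1, with PND1 replicate 1 highest. All 4 PND1 values were above all ED17.5 values, and Sycp3 rose by 0.68 ± 0.16 (adjusted p = 0.00485). The central element genes Syce1 and Syce2, named after their values were seen, rose by 1.02 ± 0.14 and 0.91 ± 0.11. Rec8, the meiotic cohesin that holds sister chromatids through the arrest, measured 85.8, 74.4, 65.8 and 81.8 CPM at ED17.5 and 62.5, 60.8, 68.0 and 76.3 CPM at PND1 and did not pass (log2 change -0.20 ± 0.10, adjusted p = 0.0935), but passed without PND1 replicate 4 or ED17.5 replicate 3 (adjusted p = 0.0381 and 0.0261). Stra8, the switch for meiotic entry, measured 0.998, 0.488, 0.315 and 3.59 CPM at ED17.5 and 0.167, 0.172, 0 and 0.169 CPM at PND1. With 65 counts over the ED17.5 libraries and 6 over the PND1 libraries it did not pass the filter on low counts, and most of its ED17.5 level came from replicate 4.

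**Figure D3:**
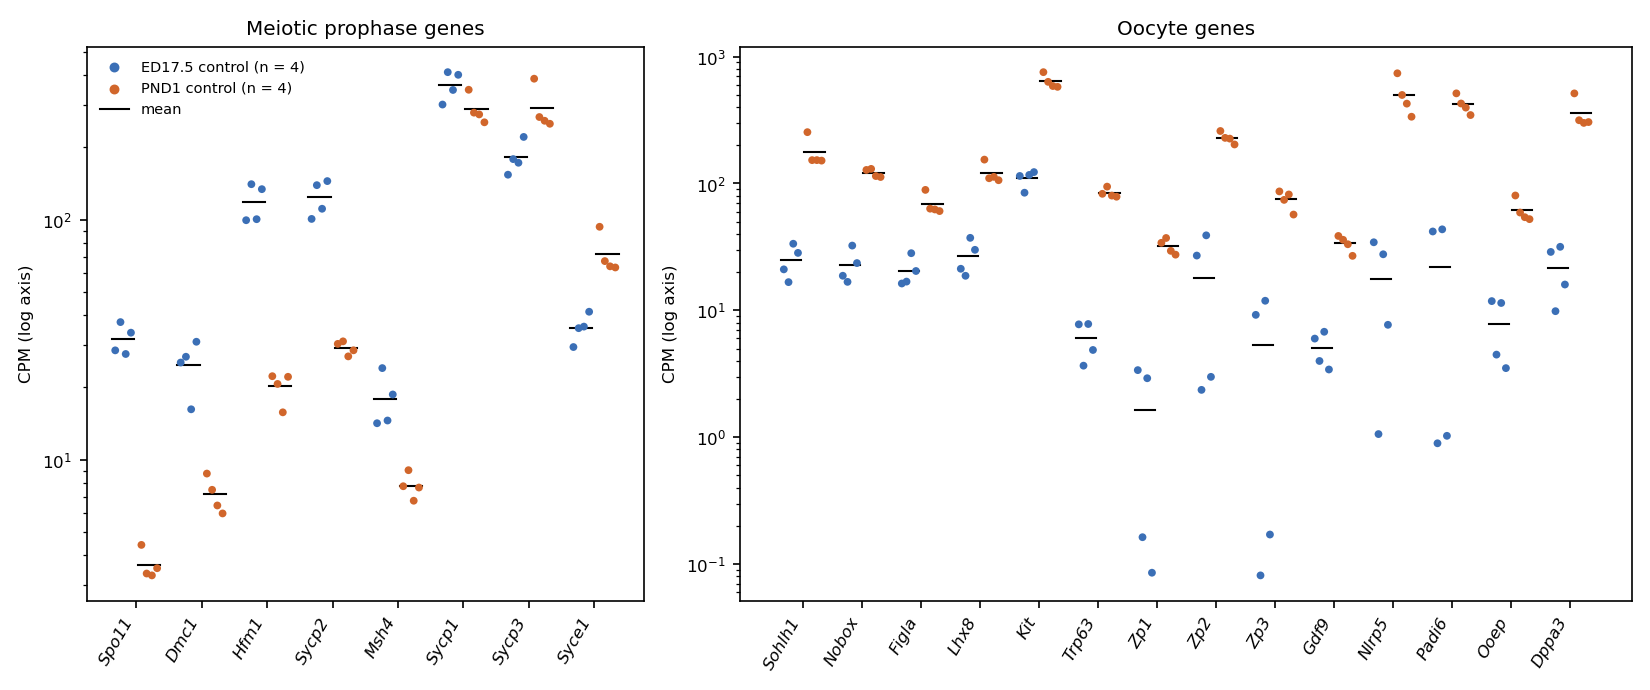
CPM on a log axis of meiotic prophase genes (left) and oocyte genes (right) in each control library (points, 4 per age) with the mean (bar). Spo11 spans 27.6 to 37.4 CPM at ED17.5 and 3.30 to 4.42 at PND1, while Kit spans 84.5 to 123 and 578 to 754 CPM; ED17.5 replicates 1 and 3 sit above replicates 2 and 4 for the zona genes.

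Germ cell genes used at every stage did not fall with the recombination genes. Of 15 tested, 8 rose and 2 fell (median 0.48). The falls were 1 without any 1 of replicates 2, 3 and 4 of either age, and the median was 0.23 within the libraries numbered 1 to 12, where 4 fell, and 0.76 within those numbered 13 to 24. Ddx4 measured 87.8, 116, 98.1 and 109 CPM at ED17.5 and 181, 135, 128 and 128 CPM at PND1 and rose by 0.48 ± 0.12 (adjusted p = 0.00710), a small rise without overlap. Dazl, an RNA-binding translation regulator, measured 146, 191, 169 and 193 CPM at ED17.5 and 230.1, 202, 186 and 196 CPM at PND1 and did not pass (log2 change 0.22 ± 0.09, adjusted p = 0.0707), but passed without ED17.5 replicate 4 (adjusted p = 0.0467). Larger rises were found for 3 of the genes on this list that act in the piRNA pathway, which silences transposons. Gtsf1, a cofactor of PIWI proteins, went from 7.31 to 102 CPM (3.79 ± 0.19), the scaffold protein Tdrd1 from 51.3 to 336 CPM (2.71 ± 0.18) and the PIWI protein gene Piwil2 from 119 to 375 CPM (1.65 ± 0.15). Tex101, a surface protein of germ cells, fell by 1.33 ± 0.11 (adjusted p = 2.05e-06). The other fall was that of Tdrkh, also a gene of the piRNA pathway, so the genes of the pathway named here did not all rise. With DESeq2 size factors, and likewise without the filter on low counts, 1 gene of the list fell.

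The list of oogonial and pluripotency genes also rose: 7 of 10 tested members, with none falling. The other 6 of 16 members were under the filter on low counts, and a member that passes through PND1 alone has to rise, so the count supports nothing further. Pou5f1, which encodes OCT4, measured 2.53, 0.976, 1.497 and 1.11 CPM at ED17.5 and 34.1, 24.9, 22.7 and 21.9 CPM at PND1. All 4 PND1 values were above all ED17.5 values, and Pou5f1 rose by 4.06 ± 0.25 (adjusted p = 3.55e-07). Dppa3, known both in primordial germ cells and as a maternal factor of the oocyte, measured 28.9, 9.85, 31.7 and 16.0 CPM at ED17.5 and 513, 315, 300.2 and 305 CPM at PND1 and rose by 4.05 ± 0.41 (adjusted p = 0.000249). Lin28a, an RNA-binding repressor of let-7 maturation, rose from 2.10 to 28.7 CPM (3.77 ± 0.24). Nanog stayed under the filter, at 0.691 CPM or less in every library.

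The transcription factors of the oocyte formed a list in which 7 of 8 tested members rose and none fell, with a median of 1.96; within the libraries numbered 1 to 12, 1 fell. Sohlh1, a helix-loop-helix factor of the primordial oocyte, measured 21.0, 16.7, 33.5 and 28.4 CPM at ED17.5 and 254, 153, 153 and 151 CPM at PND1. It rose by 2.84 ± 0.28 (adjusted p = 0.000108) and did not overlap between ages. Nobox, an oocyte homeobox factor, measured 18.7, 16.8, 32.4 and 23.6 CPM at ED17.5 and 128, 130.3, 114 and 112 CPM at PND1 and rose by 2.41 ± 0.18 (adjusted p = 4.26e-06). Lhx8, a LIM homeobox factor, measured 21.3, 18.7, 37.3 and 30.0 CPM at ED17.5 and 154, 109.9, 113 and 106 CPM at PND1 and rose by 2.17 ± 0.23 (adjusted p = 9.58e-05). Figla, the helix-loop-helix activator of zona genes, measured 16.3, 16.8, 28.2 and 20.4 CPM at ED17.5 and 89.0, 63.3, 62.4 and 60.6 CPM at PND1 and rose by 1.75 ± 0.19 (adjusted p = 4.50e-05). Tbpl2, the oocyte form of the TATA-binding protein, went from 0.332 to 8.45 CPM (4.59 ± 0.41), and Foxo3, which keeps primordial follicles dormant, from 239 to 307 CPM (0.36 ± 0.07). Taf4b, a TFIID subunit, did not pass (log2 change -0.05 ± 0.11, adjusted p = 0.742), and its sign differed between the libraries numbered 1 to 12 and 13 to 24 (-0.26 and 0.21).

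The zona pellucida genes separated the ED17.5 libraries as well as the ages. Zp3, the sperm-binding zona glycoprotein (chr5:135980099-135988624), measured 9.21, 0.0814, 11.9 and 0.171 CPM at ED17.5 and 86.6, 74.2, 81.9 and 56.9 CPM at PND1. Zp1, which cross-links zona filaments, measured 3.38, 0.163, 2.91 and 0.0854 CPM at ED17.5 and 34.1, 37.2, 29.4 and 27.5 CPM at PND1. Zp2, another structural zona protein, measured 27.0, 2.36, 39.0 and 2.99 CPM at ED17.5 and 259, 229, 226 and 203 CPM at PND1. For each, ED17.5 replicates 1 and 3 were far above replicates 2 and 4, and all 4 were below every PND1 library. Zp3 rose by 3.78 ± 0.86 (adjusted p = 0.0108), Zp1 rose by 4.25 ± 0.63 (adjusted p = 0.00115) and Zp2 rose by 3.67 ± 0.80 (adjusted p = 0.00915). Within the libraries numbered 13 to 24 the log2 change of Zp3 was 3.02, and within those numbered 1 to 12 it was 8.92. For Zp1 the values were 3.35 and 7.90, and for Zp2 2.90 and 6.33. In ED17.5 replicates 2 and 4, the ED17.5 libraries numbered 1 to 12, 3 counts corresponded to 0.244 and 0.256 CPM. Zp3 and Zp1 were below that in both, so their sizes of 8.92 and 7.90 depend on the prior count. The part of the library number in the size of these changes was not tested. Of 9 members of this list, 5 passed the filter on low counts and all 5 rose. A member that passed only through the PND1 libraries had to be higher there, so the count supports nothing further.

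The oocyte-secreted growth factors rose with the zona genes. Gdf9, which acts on granulosa cells, measured 5.99, 3.99, 6.78 and 3.42 CPM at ED17.5 and 38.6, 36.0, 33.2 and 26.9 CPM at PND1 and rose by 2.73 ± 0.19 (adjusted p = 9.01e-07). Its ED17.5 values again were higher in replicates 1 and 3, but by less than those of Zp3. Bmp15, its X-linked relative, measured 0.614, 0.488, 1.34 and 0.427 CPM at ED17.5 and 1.67, 2.24, 2.78 and 1.85 CPM at PND1, and rose by 1.56 ± 0.35 (adjusted p = 0.00251).

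Maternal-effect genes, whose products the oocyte stores for the early embryo, rose with the zona genes. The list has 28 members, 27 of them in the count table, and 16 had enough counts to be tested. All 16 rose, with a median of 3.64 (5.67 within the libraries numbered 1 to 12), and here too a member that passed through PND1 alone had to rise. Nlrp5, a core component of the subcortical maternal complex (chr7:23385889-23441922), measured 34.4, 1.06, 27.7 and 7.69 CPM at ED17.5 and 739, 498, 426 and 336 CPM at PND1. It rose by 4.81 ± 0.83 (adjusted p = 0.00346), with log2 changes of 4.26 in libraries 13 to 24 and 6.59 in libraries 1 to 12. Padi6, needed for the lattices of the oocyte cytoplasm, measured 41.8, 0.895, 43.5 and 1.02 CPM at ED17.5 and 513, 427, 396 and 346 CPM at PND1 and rose by 4.25 ± 1.04 (adjusted p = 0.0149). Ooep, a further member of the subcortical complex, measured 11.8, 4.48, 11.4 and 3.50 CPM at ED17.5 and 80.4, 59.0, 54.2 and 52.3 CPM at PND1 and rose by 2.96 ± 0.39 (adjusted p = 0.000531). ED17.5 replicates 1 and 3 were above replicates 2 and 4 for all 3 genes. Tle6, which binds NLRP5 and OOEP in the complex, did not show this split: it measured 73.3, 59.2, 60.1 and 65.8 CPM at ED17.5 and 287, 264, 259.7 and 228 CPM at PND1 and rose by 2.01 ± 0.09 (adjusted p = 2.83e-08). Npm2, a histone chaperone of the egg, rose from 1.91 to 15.6 CPM (3.01 ± 0.36), Zar1, an RNA-binding oocyte protein, from 0.847 to 3.58 CPM (2.05 ± 0.54) and Mos, the kinase behind the later metaphase arrest, from 0.315 to 4.01 CPM (3.60 ± 0.39). Uchl1, a ubiquitin hydrolase abundant in oocytes, measured 91.7, 56.1, 104 and 80.5 CPM at ED17.5 and 1175, 714, 684 and 651 CPM at PND1 and rose by 3.28 ± 0.27 (adjusted p = 4.92e-05).

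The ligand and receptor that govern oocyte survival and growth moved in opposite directions. Kit, the receptor tyrosine kinase on the oocyte (chr5:75574916-75656722), measured 115, 84.5, 117 and 123 CPM at ED17.5 and 754, 633, 586 and 578 CPM at PND1. Every PND1 value was above every ED17.5 value, and Kit rose by 2.54 ± 0.13 (adjusted p = 1.20e-07). Kitl, its ligand from pregranulosa cells, measured 954, 1071, 779.6 and 1047 CPM at ED17.5 and 539, 572, 657 and 696 CPM at PND1 and fell by 0.64 ± 0.11 (adjusted p = 0.000425), also without overlap. Of the 14 genes of the KIT and PI3K list, both included, 3 rose and 2 fell, with a median of -0.05; within the libraries numbered 13 to 24, 1 rose and 1 fell. Cdkn1b, the p27 cell cycle inhibitor that restrains follicle activation, did not pass (log2 change 0.01 ± 0.12, adjusted p = 0.969).

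Among apoptosis genes 7 of 22 rose and 7 fell (median -0.04), against 26.1% and 26.0% of all genes tested. Within the libraries numbered 13 to 24 the counts of this list were 2 and 4. Trp63, whose TAp63 isoform is the guardian of the arrested oocyte's genome (chr16:25683763-25892102), measured 7.75, 3.66, 7.80 and 4.87 CPM at ED17.5 and 82.9, 94.4, 80.2 and 78.6 CPM at PND1. It rose by 3.79 ± 0.19 (adjusted p = 1.71e-07) with no overlap of the ages; the counts per gene do not separate its isoforms. Chek2, the kinase that activates TAp63 after DNA breaks, measured 10.1, 8.63, 7.33 and 8.11 CPM at ED17.5 and 18.8, 19.7, 14.2 and 14.4 CPM at PND1 and rose by 0.97 ± 0.15 (adjusted p = 0.000177). Bax, the pro-apoptotic effector, rose from 29.0 to 43.4 CPM (0.58 ± 0.17), by 0.36 without PND1 replicate 1, and Bcl2l11, which encodes BIM, fell from 34.0 to 21.1 CPM (-0.69 ± 0.10). The survival factor gene Bcl2 did not pass (log2 change 0.13 ± 0.09, adjusted p = 0.236), but did without PND1 replicate 1 (adjusted p = 0.0373).

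Supporting cell genes moved in both directions. Of 17 pregranulosa genes tested, 2 rose and 7 fell, with a median of -0.10. Without PND1 replicate 1, 4 rose, and without ED17.5 replicate 1 or 4, or within the libraries of either set of numbers, 1 rose. Foxl2 (chr9:98955288-98958543) measured 174, 134, 119.9 and 175 CPM at ED17.5 and 247, 248, 279 and 268 CPM at PND1 and rose by 0.79 ± 0.11 (adjusted p = 0.000173), without overlap. Bmp2, a ligand made by early pregranulosa cells, measured 40.4, 41.2, 41.9 and 44.8 CPM at ED17.5 and 11.2, 13.0, 12.8 and 16.0 CPM at PND1 and fell by 1.67 ± 0.11 (adjusted p = 2.33e-07). Wnt4, the ligand that opposes the testis fate, measured 140.5, 138, 127 and 164 CPM at ED17.5 and 83.6, 90.3, 94.1 and 104 CPM at PND1 and fell by 0.61 ± 0.09 (adjusted p = 0.000105). Lhx9, a homeobox factor of the gonadal surface, fell from 154 to 73.5 CPM (-1.06 ± 0.10), and Fst, the activin-binding protein follistatin, from 211 to 112 CPM (-0.91 ± 0.12). Lgr5, the R-spondin receptor of surface and cortical pregranulosa cells, did not pass (log2 change -0.07 ± 0.09, adjusted p = 0.527). Rspo1, a Wnt amplifier, did not pass (log2 change 0.11 ± 0.08, adjusted p = 0.269), but did without PND1 replicate 1 (adjusted p = 0.0145).

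Genes of granulosa cells in growing follicles rose in 6 of 12 tested cases and fell in 1 (median 0.85). Esr2, the beta estrogen receptor, measured 4.14, 3.17, 3.23 and 2.82 CPM at ED17.5 and 13.4, 14.5, 15.0 and 12.4 CPM at PND1 and rose by 2.04 ± 0.15 (adjusted p = 5.85e-07). Nr5a2, the nuclear receptor closest to SF-1, measured 13.6, 10.9, 12.9 and 12.6 CPM at ED17.5 and 30.2, 39.5, 38.7 and 33.9 CPM at PND1 and rose by 1.51 ± 0.11 (adjusted p = 6.16e-07). Inha, the inhibin alpha subunit, measured 40.9, 34.7, 27.8 and 40.1 CPM at ED17.5 and 63.2, 67.3, 80.8 and 78.9 CPM at PND1 and rose by 1.02 ± 0.12 (adjusted p = 4.05e-05), whereas the activin subunit Inhba fell from 10.3 to 4.17 CPM (-1.30 ± 0.21). Gatm, a creatine synthesis enzyme, rose from 283 to 562 CPM (0.99 ± 0.07), and Slc18a2, a vesicular monoamine transporter, from 7.53 to 29.8 CPM (1.98 ± 0.16). Amh, the hormone of growing follicles, measured 0.768, 1.22, 0.709 and 1.28 CPM at ED17.5 and 1.75, 2.07, 1.58 and 2.11 CPM at PND1, and rose by 0.91 ± 0.27 (adjusted p = 0.0121). Fshr and Cyp19a1, the follicle-stimulating hormone receptor and aromatase, were under the filter at both ages.

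Stromal and theca precursor genes fell. Among the 15 tested, falls numbered 11 and rises 1 (median -0.77); within the libraries numbered 1 to 12, 3 rose and the median was -0.44. Pdgfra, a growth factor receptor of ovarian mesenchyme, measured 266, 283, 327 and 246 CPM at ED17.5 and 134, 138, 129 and 133 CPM at PND1 and fell by 1.07 ± 0.08 (adjusted p = 8.19e-07). Nr2f2, a nuclear receptor of interstitial cells, measured 119, 99.3, 133 and 99.7 CPM at ED17.5 and 52.7, 63.4, 67.5 and 65.5 CPM at PND1 and fell by 0.86 ± 0.11 (adjusted p = 4.55e-05). Col1a1, fibrillar collagen, measured 1453, 1146, 2290.2 and 1159 CPM at ED17.5 and 736, 773, 637 and 677 CPM at PND1 and fell by 1.10 ± 0.23 (adjusted p = 0.00432), with ED17.5 replicate 3 far above the rest. Within libraries 1 to 12, which leave that replicate out, Col1a1 changed by -0.67, and within libraries 13 to 24 by -1.42. Ptch1, the Hedgehog receptor, was the member that rose, from 47.1 to 81.7 CPM (0.80 ± 0.08). Gli1, a transcriptional output of the same pathway, fell from 10.8 to 4.42 CPM (-1.28 ± 0.21).

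Steroid-making genes moved unevenly: 5 of 13 tested rose and 1 fell (median 0.06). Without PND1 replicate 4, and likewise within the libraries numbered 13 to 24, 3 rose. The falls were 3 without PND1 replicate 1, 2 without PND1 replicate 4 or ED17.5 replicate 3, and 0 without any other 1 library. Hsd3b1, a 3-beta-hydroxysteroid dehydrogenase, measured 69.9, 56.7, 40.2 and 76.9 CPM at ED17.5 and 131, 168, 171 and 183 CPM at PND1 and rose by 1.42 ± 0.20 (adjusted p = 0.000404). Its relative Hsd3b6, whose reads could in part be shared with near-identical family members, measured 0.921, 0.244, 0.551 and 0.427 CPM at ED17.5 and 10.8, 10.4, 10.8 and 9.27 CPM at PND1 and rose by 4.23 ± 0.25 (adjusted p = 1.65e-07). Akr1c18, which inactivates progesterone, rose from 5.27 to 15.6 CPM (1.57 ± 0.16), and Cyp11a1, the side-chain cleavage enzyme, from 4.25 to 5.98 CPM (0.49 ± 0.16). Without PND1 replicate 4, and likewise without ED17.5 replicate 4, Cyp11a1 did not pass (adjusted p = 0.0524 and 0.0553). Cyp17a1, the enzyme of androgen synthesis, did not pass with all libraries (log2 change -0.29 ± 0.25, adjusted p = 0.348). Star, the cholesterol carrier, did not pass either (log2 change 0.17 ± 0.10, adjusted p = 0.180), but did without PND1 replicate 1 (adjusted p = 0.0408). Of the 22 cholesterol synthesis genes, 8 rose and 2 fell (median 0.17), against 26.1% and 26.0% of all genes tested. In this list 1 fell without ED17.5 replicate 1 or 2, and 5 rose within the libraries numbered 13 to 24.

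In the surface epithelium list 3 of 11 genes rose, a share near the 26.1% of all genes tested, and none fell. Without ED17.5 replicate 3, 7 rose. DESeq2's Wald test called 5 rises, and 1 gene fell without ED17.5 replicate 1. The keratin genes Krt8 and Krt18 went from 115 to 181 CPM and from 104 to 158 CPM, log2 changes of 0.65 ± 0.08 and 0.60 ± 0.06. Upk3b, a uroplakin of the ovarian mesothelium, did not pass (log2 change -0.14 ± 0.12, adjusted p = 0.340), and its sign differed between the libraries numbered 1 to 12 and 13 to 24 (0.01 and -0.27). The testis-pathway list held 4 rises and 1 fall among 10 tested, and 1 rise within the libraries numbered 13 to 24. Cyp26b1, the retinoic acid degrading enzyme of the fetal testis, did not pass (log2 change 0.39 ± 0.19, adjusted p = 0.0937), but did without PND1 replicate 4 or ED17.5 replicate 3 (adjusted p = 0.0422 and 0.0192).

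Notch signalling is used between oocytes and pregranulosa cells when cysts break down. In this list 7 of 18 tested genes rose and 3 fell (median 0.11), against 26.1% and 26.0% of all genes tested. Without ED17.5 replicate 2, and likewise without PND1 replicate 1, 5 fell, and within the libraries numbered 1 to 12, 1 fell. Among the ligands, Jag2 measured 57.6, 49.8, 60.8 and 60.6 CPM at ED17.5 and 229, 179.8, 177 and 173 CPM at PND1 and rose by 1.73 ± 0.10 (adjusted p = 1.42e-07), and Jag1 measured 18.7, 13.8, 23.2 and 17.2 CPM at ED17.5 and 37.5, 33.0, 28.0 and 29.6 CPM at PND1 and rose by 0.81 ± 0.15 (adjusted p = 0.000639). Among the receptors, Notch2 overlapped between ages and rose by 0.25 ± 0.07, while Notch3, the receptor of mural cells, measured 70.2, 53.9, 69.4 and 60.8 CPM at ED17.5 and 27.4, 22.2, 26.2 and 20.9 CPM at PND1 and fell by 1.39 ± 0.11 (adjusted p = 1.13e-06). Among the target genes, Heyl rose from 13.8 to 40.9 CPM (1.57 ± 0.12), Hey2 from 2.90 to 6.76 CPM (1.22 ± 0.22) and Hes1 from 55.1 to 85.6 CPM (0.64 ± 0.08).

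In the Wnt list 9 of 20 tested genes fell and 2 rose (median -0.21); within the libraries numbered 13 to 24, 1 rose. Wnt5a, a ligand of mesenchyme, measured 99.9, 86.0, 127 and 85.8 CPM at ED17.5 and 28.5, 26.6, 27.6 and 28.6 CPM at PND1 and fell by 1.84 ± 0.12 (adjusted p = 3.55e-07). Notum, a secreted Wnt deacylase and feedback target, fell from 11.0 to 3.79 CPM (-1.53 ± 0.22), and Lef1, a nuclear effector, from 18.1 to 13.6 CPM (-0.42 ± 0.10). Axin2, the standard readout of beta-catenin activity, measured 147, 141, 128 and 149.9 CPM at ED17.5 and 126, 143, 138 and 143 CPM at PND1 and did not pass (log2 change -0.04 ± 0.07, adjusted p = 0.650).

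In the TGF-beta family 12 of 28 genes fell and 7 rose (median -0.19), against 26.0% and 26.1% of all genes tested. Within the libraries numbered 13 to 24, 4 of the family rose. Targets of BMP signalling were among the falls. Id3, an inhibitor of helix-loop-helix factors, measured 160.4, 171, 172 and 163 CPM at ED17.5 and 78.0, 76.6, 81.8 and 82.1 CPM at PND1 and fell by 1.07 ± 0.06 (adjusted p = 6.93e-08). Smad6, the inhibitory SMAD of the BMP branch, measured 34.4, 27.3, 28.8 and 25.0 CPM at ED17.5 and 10.2, 11.0, 11.9 and 11.1 CPM at PND1 and fell by 1.39 ± 0.11 (adjusted p = 1.27e-06), and Smad7, the other inhibitory SMAD, went from 42.0 to 19.6 CPM (-1.10 ± 0.12). Smad3, the activin and TGF-beta effector, moved the other way: it measured 234, 193, 193 and 224 CPM at ED17.5 and 503, 529.9, 562 and 514 CPM at PND1 and rose by 1.32 ± 0.08 (adjusted p = 1.34e-07).

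Hedgehog genes fell in 9 of 11 tested cases (median -0.47), Ptch1 being the 1 that rose. Hhip, a ligand-binding antagonist, measured 1.38, 2.20, 1.89 and 0.940 CPM at ED17.5 and 0.0835, 0.0862, 0.300 and 0.337 CPM at PND1 and fell by 2.91 ± 0.45 (adjusted p = 0.000205). In the retinoic acid list 8 of 16 genes fell and 2 rose (median -0.35), with 4 rising without PND1 replicate 4 and 1 rising without ED17.5 replicate 1 or 4. Aldh1a1, a retinaldehyde dehydrogenase, measured 612, 669.9, 572 and 700 CPM at ED17.5 and 994, 956, 1003 and 1021 CPM at PND1 and rose by 0.64 ± 0.07 (adjusted p = 1.36e-05). Crabp2, which carries retinoic acid to its receptors, measured 4.30, 6.18, 10.9 and 4.36 CPM at ED17.5 and 1.92, 1.64, 1.58 and 2.19 CPM at PND1 and fell by 1.81 ± 0.31 (adjusted p = 0.000458). Rbp4, the retinol carrier of plasma, fell from 17.6 to 2.67 CPM (-2.72 ± 0.36); hepatocytes make it too, and its ED17.5 values of 29.7, 18.3, 12.8 and 9.74 CPM were highest in the library with the most hepatocyte transcripts. Their part in its fall was not tested. Among steroid receptors Pgr, the progesterone receptor, fell from 8.52 to 4.03 CPM (-1.08 ± 0.15). Esr1, the alpha estrogen receptor, did not pass (log2 change 0.30 ± 0.12, adjusted p = 0.0528), but did without ED17.5 replicate 3 or PND1 replicate 1 (adjusted p = 0.000784 and 0.0446), and with DESeq2's Wald test (adjusted p = 0.0271). Egr1, an immediate early gene, rose from 17.5 to 42.4 CPM (1.28 ± 0.15).

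Fetal growth genes fell together. Of 22 tested imprinted and fetal growth genes, 18 fell and 2 rose, and the median was -0.64; none rose within the libraries numbered 13 to 24. Cdkn1c, the maternally expressed inhibitor of cyclin-dependent kinases, measured 656, 643, 638 and 635 CPM at ED17.5 and 164, 152, 165 and 178 CPM at PND1. Replicates were close within each age, and it fell by 1.96 ± 0.06 (adjusted p = 4.53e-09). H19, the imprinted long non-coding RNA (chr7:142575529-142578143), measured 5789.7, 6045, 5809 and 5581 CPM at ED17.5 and 2041, 2128, 2327 and 2443 CPM at PND1 and fell by 1.38 ± 0.07 (adjusted p = 5.93e-08). Igf2, the fetal insulin-like growth factor encoded beside it, measured 177, 159.7, 202 and 159.6 CPM at ED17.5 and 48.6, 53.9, 64.3 and 68.1 CPM at PND1 and fell by 1.57 ± 0.11 (adjusted p = 9.12e-07).

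Dlk1, the paternally expressed Notch-like ligand, measured 461, 378, 717 and 367 CPM at ED17.5 and 206, 203, 195 and 191 CPM at PND1 and fell by 1.27 ± 0.21 (adjusted p = 0.00114); ED17.5 replicate 3 was highest, as for Col1a1. Grb10, an adaptor that restrains insulin receptor signalling, fell from 442 to 193 CPM (-1.20 ± 0.09). Igf2bp1, which binds IGF2 messenger RNA, fell from 18.7 to 3.31 CPM (-2.49 ± 0.15), and Lin28b, the paralog of Lin28a, from 16.2 to 9.76 CPM (-0.73 ± 0.13). The paralogs Lin28a and Lin28b changed in opposite directions. Igf2 and Afp are also transcribed in fetal liver, and the part of liver RNA in the fall of Igf2 was not tested; its 4 ED17.5 values did not follow the order of Alb.

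Glycolysis and hypoxia-response genes fell in 14 of 18 tested cases and rose in 2 (median -0.73), none of them within the libraries numbered 13 to 24. Slc2a1, the GLUT1 glucose transporter (chr4:119108711-119137983), measured 119, 83.3, 102 and 104 CPM at ED17.5 and 27.1, 25.7, 26.1 and 26.0 CPM at PND1. The PND1 values lay within a narrow range far below those of ED17.5, and Slc2a1 fell by 1.96 ± 0.10 (adjusted p = 6.07e-08). Hk2, the hexokinase that traps glucose in the cell, measured 38.5, 35.1, 33.0 and 35.0 CPM at ED17.5 and 12.5, 12.0, 11.9 and 12.6 CPM at PND1 and fell by 1.53 ± 0.08 (adjusted p = 9.51e-08). Ldha, the lactate-forming dehydrogenase subunit, measured 511, 441, 461 and 452 CPM at ED17.5 and 176, 168, 193 and 177 CPM at PND1 and fell by 1.39 ± 0.07 (adjusted p = 5.93e-08). Pfkl, a phosphofructokinase subunit, fell from 216 to 109 CPM (-0.98 ± 0.05), Aldoa, aldolase A, from 679.8 to 391 CPM (-0.80 ± 0.06) and Vegfa, the vascular growth factor, from 85.7 to 48.8 CPM (-0.81 ± 0.08). Ankrd37, a small hypoxia-induced gene, measured 11.1, 9.85, 12.2 and 8.97 CPM at ED17.5 and 3.76, 2.16, 2.63 and 3.03 CPM at PND1 and fell by 1.86 ± 0.18 (adjusted p = 6.05e-06). Pdk1 and Car9, named after their values were seen, changed by 0.35 ± 0.09 and 0.68 ± 0.16; the former keeps pyruvate out of the mitochondrion and the latter is a membrane carbonic anhydrase.

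The promoters of 3 of these glycolysis genes are shown because they hold ACGTG, the core of the element that hypoxia-inducible factors bind. Both strands were searched, so capitals mark ACGTG or its reverse complement CACGT, and overlapping matches run together. The windows are the 250 bases before the start in RefSeq (GRCm38.p6): Slc2a1 at chr4:119108495-119108744 on the plus strand, Hk2 at chr6:82774455-82774704 on the minus strand and Ldha at chr7:46845554-46845803 on the plus strand.
Slc2a1: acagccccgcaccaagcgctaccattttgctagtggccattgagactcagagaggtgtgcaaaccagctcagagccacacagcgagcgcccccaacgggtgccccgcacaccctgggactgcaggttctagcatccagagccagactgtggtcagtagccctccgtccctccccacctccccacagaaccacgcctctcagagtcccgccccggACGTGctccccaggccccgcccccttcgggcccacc
Hk2: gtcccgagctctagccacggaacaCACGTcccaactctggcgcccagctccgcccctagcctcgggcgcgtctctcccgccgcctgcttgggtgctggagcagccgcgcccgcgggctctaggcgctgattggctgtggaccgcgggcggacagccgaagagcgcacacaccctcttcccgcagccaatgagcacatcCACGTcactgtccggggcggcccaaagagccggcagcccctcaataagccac
Ldha: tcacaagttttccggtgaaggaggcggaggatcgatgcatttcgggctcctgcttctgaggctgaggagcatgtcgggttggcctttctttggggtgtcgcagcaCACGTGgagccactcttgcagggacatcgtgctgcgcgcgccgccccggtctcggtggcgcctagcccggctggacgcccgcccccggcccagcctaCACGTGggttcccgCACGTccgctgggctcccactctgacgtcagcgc
Slc2a1 held 1 match, at -36 from the start, Hk2 held 2, at -226 and -52, and Ldha held 5, counted on both strands. Of the 16 genes of the list with a window, 8 held the core, against 21.2% of the 11981 windows of tested genes. Car9, which rose, was among the 8. The match describes the letters of the window and nothing about binding.

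**Figure D4:**
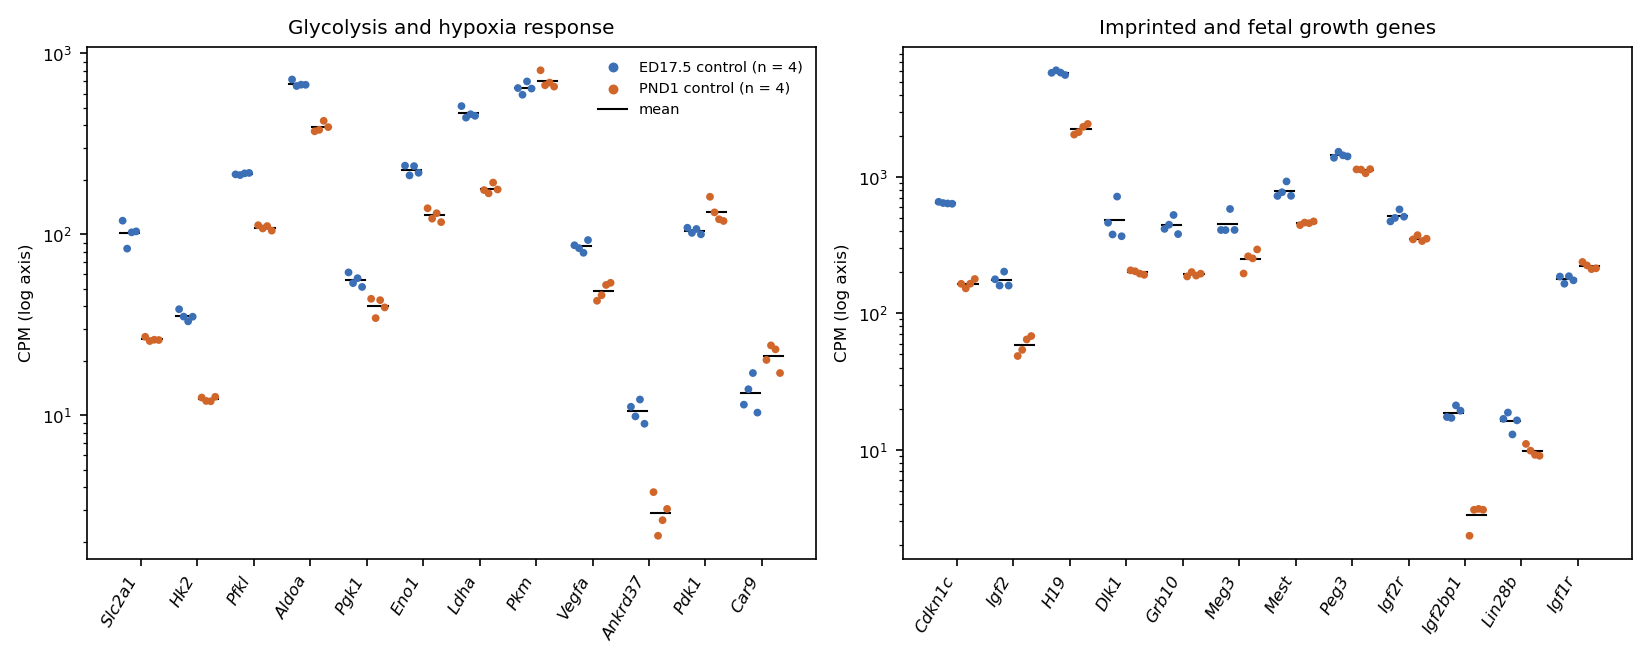
CPM on a log axis of glycolysis and hypoxia-response genes (left) and imprinted and fetal growth genes (right) in each control library (points, 4 per age) with the mean (bar). Slc2a1 lies at 83.3 to 119 CPM at ED17.5 and 25.7 to 27.1 at PND1, and Cdkn1c at 635 to 656 and 152 to 178 CPM.

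Oxidative phosphorylation genes moved the other way by small amounts: 9 of 16 rose and none fell (median 0.31). Cox5a, a cytochrome oxidase subunit, measured 72.2, 60.7, 61.6 and 69.2 CPM at ED17.5 and 140.1, 95.8, 101 and 104 CPM at PND1 and rose by 0.74 ± 0.11 (adjusted p = 0.000262), and Cox4i1, a further subunit, went from 268 to 379 CPM (0.50 ± 0.10). PND1 replicate 1 was highest for both. Atp5b, the ATP synthase beta subunit, did not pass (log2 change 0.14 ± 0.08, adjusted p = 0.151). Ribosomal protein genes fell in 10 of 20 cases and rose in none (median -0.26), a count that rested on single libraries: 19 fell without PND1 replicate 1, and the count was 16 within the libraries numbered 1 to 12 and 1 within those numbered 13 to 24. Rpl3, of the large subunit, overlapped between ages and fell by 0.28 ± 0.10 (adjusted p = 0.0303); it did not pass without any 1 of PND1 replicates 2, 3 and 4 or ED17.5 replicates 1 and 3 (adjusted p = 0.0592 to 0.0940).

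In the cell cycle list 7 of 28 genes rose, a share near the 26.1% of all genes tested, and 2 fell (median 0.04). Without PND1 replicate 4, 11 rose, and without PND1 replicate 2, 4 fell. Within the libraries numbered 13 to 24, 3 rose and 3 fell. Mki67, the marker of cycling cells, measured 461, 404, 431 and 413 CPM at ED17.5 and 203, 411, 323 and 225 CPM at PND1 and did not pass (log2 change -0.55 ± 0.21, adjusted p = 0.0584). The PND1 libraries differed from each other in Mki67, with replicate 2 at the ED17.5 level, and without replicate 2 Mki67 fell by 0.76 (adjusted p = 0.00174). Top2a, the mitotic topoisomerase, fell by 0.39 ± 0.10 (adjusted p = 0.00589), and E2f1, a driver of S-phase genes, rose by 1.05 ± 0.15 (adjusted p = 0.000142).

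Markers of other cell types moved as follows. Of 14 endothelial genes, 11 fell and none rose (median -0.58), and 7 fell within the libraries numbered 13 to 24. Kdr, the main VEGF receptor, measured 133, 149, 152 and 140.2 CPM at ED17.5 and 88.4, 101, 91.6 and 96.2 CPM at PND1 and fell by 0.61 ± 0.07 (adjusted p = 1.26e-05), Cdh5, the endothelial cadherin, fell by 0.59 ± 0.10 (adjusted p = 0.000314), and Plvap, a protein of fenestrated vessels, fell by 1.37 ± 0.18 (adjusted p = 6.81e-05). Macrophage genes fell in 10 of 12 tested cases (median -1.09), and their 14 members summed to 212 to 298 CPM at ED17.5 and 96.3 to 194 CPM at PND1. Csf1r, the receptor that maintains macrophages, measured 30.9, 31.4, 41.0 and 26.6 CPM at ED17.5 and 12.3, 15.3, 13.4 and 15.0 CPM at PND1 and fell by 1.22 ± 0.13 (adjusted p = 1.25e-05). C1qa, a complement protein they secrete, fell by 1.02 ± 0.15 (adjusted p = 0.000154).

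Hepatocyte genes fell in 25 of 26 tested cases, with a median of -4.97. A member that passed the filter on low counts only through the ED17.5 libraries had to fall, so the count supports nothing further. Alb fell by 6.17 ± 0.74 (adjusted p = 0.000633), Afp, the fetal alpha-fetoprotein, fell by 6.39 ± 0.75 (adjusted p = 0.000589) and Ttr, the thyroid hormone carrier, fell by 6.26 ± 0.61 (adjusted p = 0.000125). Afp measured 614, 450.2, 211 and 164 CPM at ED17.5 and 3.76, 0.517, 5.18 and 7.58 CPM at PND1, highest in ED17.5 replicates 1 and 2, as for Alb. Erythroid genes fell in 4 of 16 tested cases, a share of calls near the 26.0% of all genes tested, and none rose. Their median was nevertheless -1.98, against -0.02 for all genes tested. In 11 of the 16 the ages did not overlap, against 49.6% of all genes tested. Here too a member that passed the filter only through the ED17.5 libraries had to be lower at PND1. Without PND1 replicate 2, the PND1 library with the most globin, 8 fell and the median was -3.08. Within the libraries numbered 1 to 12, and with only ED17.5 replicates 3 and 4 kept, 1 fell, and 1 rose without PND1 replicate 4 or ED17.5 replicate 1. Hbb-bs, an adult beta globin gene, measured 4246, 2896, 2628 and 1993 CPM at ED17.5 and 153, 849, 467 and 161 CPM at PND1 and fell by 2.85 ± 0.67 (adjusted p = 0.0124); Alas2, the erythroid haem synthesis enzyme, did not overlap between ages and did not pass (log2 change -2.27 ± 0.82, adjusted p = 0.0583), but fell by 3.27 without PND1 replicate 2 (adjusted p = 0.0110). Globin reads can be shared among near-identical paralogs.

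In the list of lymphocyte, neutrophil and mast cell genes 2 of 14 tested rose and 2 fell, and 4 fell without ED17.5 replicate 2 or 3. DESeq2's Wald test called 5 falls. The 2 rises were those of Cd4 and of Kit, the receptor on the oocyte described above. Mpo, the myeloperoxidase of granulocyte precursors, measured 105, 4.64, 3.78 and 174 CPM at ED17.5 and 4.59, 5.26, 2.93 and 0 CPM at PND1 and did not pass (log2 change -4.49 ± 1.58, adjusted p = 0.0541), with ED17.5 replicates 1 and 4 far above the rest. Without ED17.5 replicate 2, and likewise without replicate 3, it passed (adjusted p = 0.0379 and 0.0332). S100a8, a neutrophil protein, measured 50.3, 18.4, 14.9 and 50.9 CPM at ED17.5 and 22.3, 98.9, 206 and 1.69 CPM at PND1 and did not pass (log2 change 1.30 ± 1.16, adjusted p = 0.389). Cpa3, the mast cell carboxypeptidase, varied less within an age: it measured 94.3, 132, 132 and 129.6 CPM at ED17.5 and 37.9, 52.9, 66.2 and 69.9 CPM at PND1 and fell by 1.10 ± 0.19 (adjusted p = 0.00150). Calb1, a calcium-binding protein on the list for kidney and duct epithelium, measured 77.0, 92.8, 61.2 and 76.9 CPM at ED17.5 and 7.68, 6.73, 7.21 and 7.33 CPM at PND1 and fell by 3.41 ± 0.13 (adjusted p = 1.16e-08), 1 of 4 falls among 8 tested members. The summed level of that list was 114 to 131 CPM at ED17.5 and 31.2 to 42.5 CPM at PND1. Th, the tyrosine hydroxylase listed for adrenal medulla, measured 5.60, 0.814, 2.28 and 0.940 CPM at ED17.5 and 68.7, 50.1, 47.7 and 43.1 CPM at PND1 and rose by 4.41 ± 0.48 (adjusted p = 0.000224). In that list 2 of 4 tested members rose and 1 fell (1 and 0 within the libraries numbered 13 to 24), and Cyp21a1 and Cyp11b1, the defining enzymes of adrenal cortex, were under the filter, at 1.20 CPM or less in every library. Myh8, the perinatal skeletal myosin, measured 14.7, 15.9, 20.5 and 14.4 CPM at ED17.5 and 2.67, 3.36, 2.25 and 3.20 CPM at PND1 and fell by 2.52 ± 0.17 (adjusted p = 3.72e-07).

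The 12 largest rises among genes of at least 1 CPM without overlap were Tmco5b, Iqcf5, Krt83, Ms4a1, Noto, Musk, Zp4-ps, Pnma5, Oas1h, Nlrp5, Nlrp4f and Nlrp4g. Tmco5b, Iqcf5, Krt83 and Ms4a1 had 2 or 3 counts over the ED17.5 libraries, so their fitted changes depend on the prior count. Tmco5b had 2 counts over the ED17.5 libraries and 173 over the PND1 libraries, a ratio of 88.2 (95% counting interval 24.0 to 734). Noto, a homeobox gene known from the notochord, measured 1.38, 0.244, 0.551 and 0 CPM at ED17.5 and 23.2, 18.0, 17.9 and 16.3 CPM at PND1 and rose by 5.05 ± 0.46 (adjusted p = 1.81e-05). Musk, the kinase known from the neuromuscular junction, measured 0.691, 0.163, 0.473 and 0.0854 CPM at ED17.5 and 15.4, 13.9, 8.78 and 10.5 CPM at PND1 and rose by 5.03 ± 0.36 (adjusted p = 8.09e-07). Oas1h, of the oligoadenylate synthetase family, measured 2.07, 0, 1.65 and 0 CPM at ED17.5 and 33.4, 27.8, 25.8 and 21.6 CPM at PND1 and rose by 4.81 ± 0.65 (adjusted p = 0.000661). Nlrp4f and Nlrp4g, oocyte NLR family genes with close paralogs among which reads can be split, rose by 4.76 ± 0.45 (adjusted p = 0.000179) and rose by 4.73 ± 0.45 (adjusted p = 4.08e-05). The Zp4-ps row is a pseudogene of a zona gene and rose by 4.94 ± 0.49 (adjusted p = 6.53e-06).

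The 12 largest falls included Serpind1, Serpina6, Serpina1c, Aadac, Afp, Uox, Serpina1a, Ttr, Alb, Spp2 and Fgg, genes known for their expression in liver. Serpind1, heparin cofactor II, had 207 counts over the ED17.5 libraries and 0 over the PND1 libraries, at least 67.7-fold lower against a floor of 3 counts over the group, with a ratio whose 95% counting interval starts at 54.6. Serpina6, which carries corticosteroids in plasma, had 589 counts against 3, a ratio of 193 (95% counting interval 65.6 to 937). Fgg, a fibrinogen chain, measured 34.8, 36.5, 16.6 and 38.01 CPM at ED17.5 and 0.334, 0, 1.05 and 0.506 CPM at PND1 and fell by 5.98 ± 0.51 (adjusted p = 2.78e-05). These intervals cover counting error only.

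The same ages were measured in cKO ovaries, which share no library with the controls. In cKO ovaries 8716 of 16891 genes tested changed between the ages (51.6%), with a median log2 change of -0.01 over all of them. Of the 8381 genes that changed in controls, 7944 (94.8%) had the same sign in cKO ovaries and 6209 (74.1%) also passed there in that direction. The change itself differed between genotypes for 364 of 16891 genes (2.15%), by an interaction term over 16 libraries: 281 rose more or fell less in the cKO, and 83 the reverse. With DESeq2 size factors the split was 187 and 114, and DESeq2's Wald test called 684 genes, 371 and 313. This count rested on single libraries: it was 127 without PND1 cKO replicate 3, 168 without ED17.5 cKO replicate 4, 193 and 194 without PND1 cKO replicates 4 and 1, and 197, 221 and 242 without PND1 control replicate 2 and ED17.5 control replicates 2 and 3. By direction, 147 rose more without PND1 cKO replicate 2, and the reverse group held 138 and 272 genes without ED17.5 cKO replicates 3 and 1 and 35 and 42 without PND1 control replicate 2 and PND1 cKO replicate 3.

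**Figure D5:**
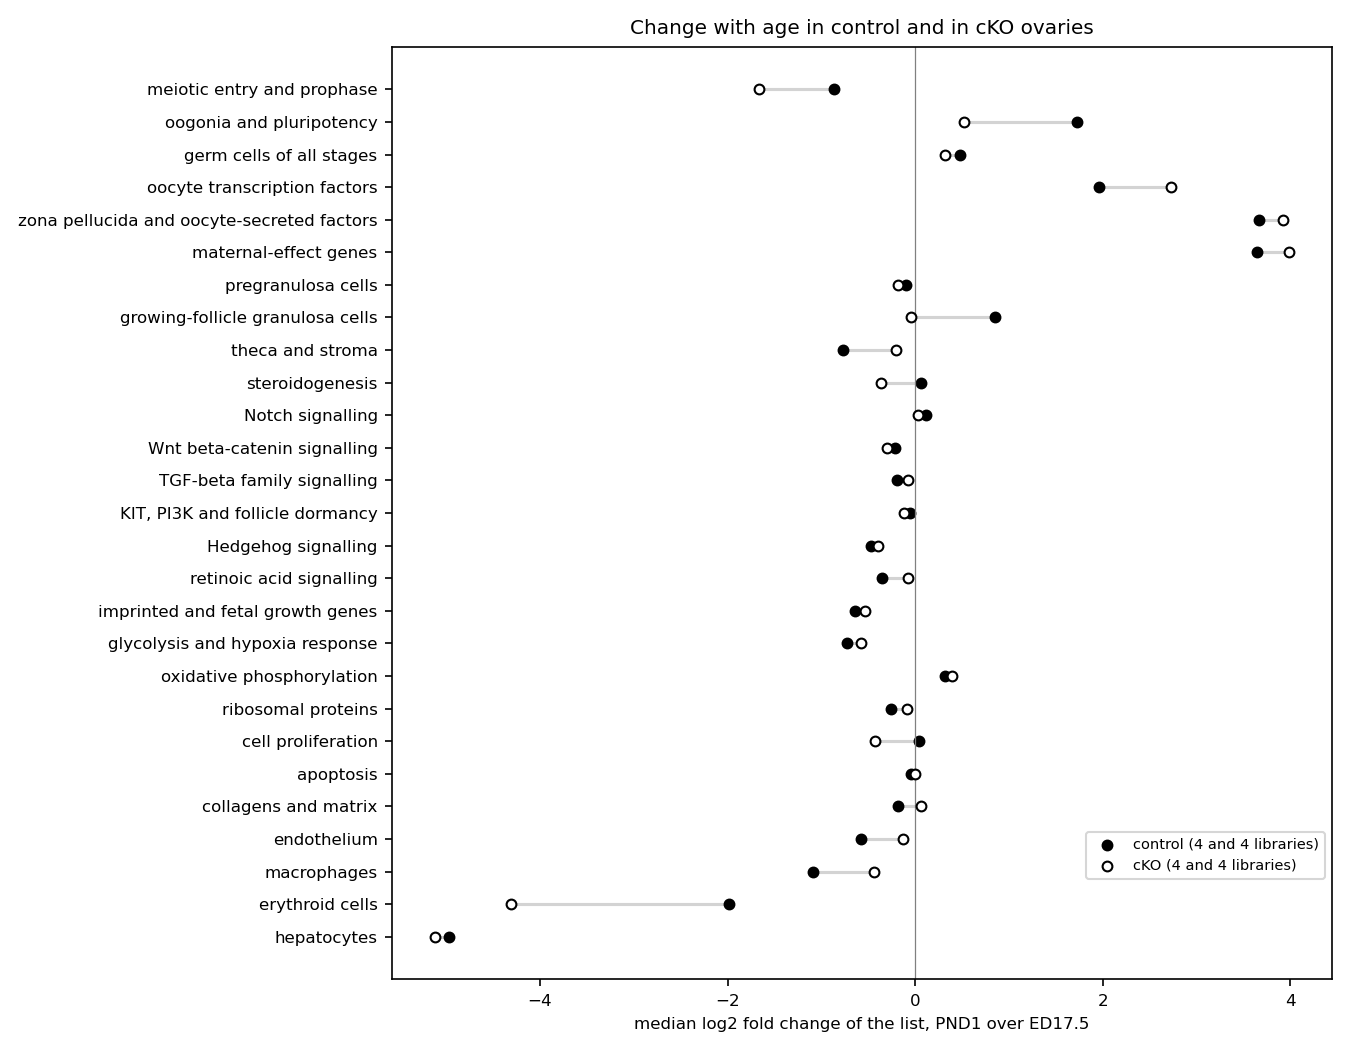
Median log2 fold change from ED17.5 to PND1 of each gene list in control (filled) and cKO (open) ovaries, 4 against 4 libraries each. Maternal-effect genes have medians of 3.64 and 3.99, and growing-follicle granulosa genes 0.85 and -0.05. None of the 12 granulosa genes tested passed the interaction with genotype, and no test of the medians was made.

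In the germ cell lists 2 of 90 genes tested (2.22%) differed between genotypes in their change, Prdm9 and Ccdc36, a share near the 2.15% of all genes; the count was 1 to 6 when each library was left out. Prdm9 changed by -2.06 ± 0.21 in cKO ovaries, a difference of -1.15 ± 0.29 (adjusted p = 0.0461) from controls. The oocyte lists had none, and the maternal-effect medians were 3.64 in controls and 3.99 in cKO ovaries. Growing-follicle granulosa genes also held no such difference among 12 tested, with medians of 0.85 in controls and -0.05 in cKO ovaries. Among fetal growth genes, Cdkn1c, H19 and Grb10 fell less in the cKO. The CPM of cKO libraries, and of the control libraries set beside them, are scaled over the 16 libraries, so these control values differ slightly from those scaled over 8. Cdkn1c measured 371, 399, 278 and 365 CPM in the ED17.5 cKO libraries and 205, 167, 183 and 189 CPM in the PND1 cKO libraries. Its cKO ED17.5 values were below those of the controls, and its change differed by 1.07 ± 0.13 (adjusted p = 0.000410). H19 differed by 0.65 ± 0.12 (adjusted p = 0.00893). Of the BMP targets, Id3 changed by -0.20 ± 0.05 in the cKO, a difference of 0.89 ± 0.07 (adjusted p = 4.01e-06), and Smad6 by -0.73 ± 0.09, a difference of 0.69 ± 0.13 (adjusted p = 0.00828).

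Endothelial genes held 5 differences among 14 (35.7%, against 2.15% of all genes). That count was 1 without PND1 cKO replicate 1, 3 or 4 or ED17.5 cKO replicate 4, 2 without ED17.5 control replicate 3, and 3 without PND1 control or cKO replicate 2. Other lists held such differences too, among them theca and stroma (3 of 15), the TGF-beta family (5 of 28), fetal growth genes (3 of 22) and collagens and matrix (3 of 25). The 3 of theca and stroma were Pdgfrb, Col3a1 and Maf. Pecam1, the platelet and endothelial adhesion molecule, measured 90.9, 93.5, 93.1 and 95.9 CPM at ED17.5 and 95.8, 92.8, 90.9 and 94.6 CPM at PND1 in the cKO, where its log2 change was 0.00 ± 0.07; controls measured 80.8, 73.5, 87.0 and 73.0 CPM at ED17.5 and 44.3, 47.7, 57.6 and 47.3 CPM at PND1. The difference was 0.68 ± 0.10 (adjusted p = 0.00290). Grik1, a kainate receptor subunit, differed by 2.66 ± 0.31 (adjusted p = 0.000410) and Chodl, a membrane lectin, by 2.64 ± 0.34 (adjusted p = 0.000798). Grik1 measured 18.4, 17.3, 11.0 and 22.6 CPM at ED17.5 and 14.4, 15.2, 17.5 and 16.3 CPM at PND1 in the cKO, and 10.6, 15.1, 18.7 and 10.9 CPM at ED17.5 and 2.01, 1.44, 2.08 and 2.43 CPM at PND1 in controls. Chodl measured 5.20, 7.83, 4.22 and 3.37 CPM at ED17.5 and 5.97, 5.52, 9.29 and 6.37 CPM at PND1 in the cKO, and 12.6, 23.7, 15.9 and 20.2 CPM at ED17.5 and 3.95, 3.47, 4.01 and 3.77 CPM at PND1 in controls. In the reverse direction, Rasl10a, a RAS-like small GTPase, rose in controls (0.694, 0.494, 0.547 and 0.517 CPM at ED17.5 and 6.76, 4.49, 5.94 and 4.27 CPM at PND1) and measured 0.813, 0.845, 1.59 and 0.241 CPM at ED17.5 and 1.43, 0.501, 1.03 and 1.11 CPM at PND1 in the cKO, a difference of -3.01 ± 0.55 (adjusted p = 0.00753).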

How the data were processed

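Polyadenylated RNA of whole ovaries was sequenced from directional libraries, and the authors deposited 1 table of raw counts per gene for all libraries, with 55487 genes. The build was GRCm38, per the submitters' processing notes, which also list DESeq2, HTSeq, STAR and Trimmomatic without versions. Whether reads were counted by strand, and on which annotation release, is not given in the sources used here; where strand was ignored, overlapping antisense genes cannot be told apart. Groups came from the age and genotype in the labels. The 8 control libraries (11510309 to 13455617 counts) were fitted with edgeR 4.0.16 in R 4.3.3: TMM scaling, filterByExpr (minimum count 10, minimum total 15), the robust quasi-likelihood test, and Benjamini-Hochberg adjustment at 0.05. The interaction with genotype used 16 libraries, with cKO ovaries at the same ages. CPM are counts divided by TMM-scaled library sizes. Alternatives were DESeq2 1.42.0 (size factors and Wald test), scaling without liver and blood genes, no filter, more libraries, a replicate block, the libraries numbered 1 to 12 or 13 to 24 alone, and leaving out each library. Simulated counts with 200 changed genes among 16078 tested the fit of control PND1 against ED17.5: 38 of 67 genes changed 1.5-fold, 58 of 67 changed 2-fold and 65 of 66 changed 4-fold were called, with 11 of 15878 unchanged genes. The changed genes were drawn only from those above a set mean count. They were also a far smaller share than the 52.1% of genes that passed in the data. These rates therefore describe the simulated setting and not the comparison of the ages itself. Coordinates are those of GENCODE M21 (GRCm38), which matched 99.38% of gene identifiers, and promoter windows come from RefSeq.

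The members and the 45 gene lists (738 distinct genes, 735 in the table, 642 tested) were chosen with earlier results of these data known. Named genes were the 12 largest rises and 12 largest falls among called genes whose ages did not overlap and whose mean level was 1 CPM or more, leaving out predicted models, the anchor genes of each list, up to 6 further members with the smallest p, and the 5 largest interactions in each direction. This rule covers 418 genes, of which 151 were tested and are described. Some results are not reported here. A further 12 genes were chosen after their values were seen, or, for Nr5a1, as the floxed gene.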

Additional observations from a re-analysis of the deposited data

Results flagged for a closer look

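A library far from the other 3 of its age, by the gap to its neighbour over the range, was found in 23 of 326 groups of 4 values for the genes described. Chance flags about 1 in 20 groups, and genes of a library are not independent. PND1 replicate 1 held most of them. It was the highest of its age for Sycp3 (386 CPM, others 250.5 to 267), Syce1 (93.3 CPM, others 63.2 to 67.2), Syce2 (118 CPM, others 82.7 to 87.3) and Ddx4 (181 CPM, others 128 to 135). It was also highest for Dppa3 (513 CPM, others 300.2 to 315), Sohlh1 (254 CPM, others 151 to 153), Lhx8 (154 CPM, others 106 to 113) and Figla (89.0 CPM, others 60.6 to 63.3). Among the rest, it was highest for Uchl1 (1175 CPM, others 651 to 714), Jag2 (229 CPM, others 173 to 179.8) and Cox4i1 (471 CPM, others 341 to 359). It was lowest for Rspo1 (53.5 CPM, others 65.8 to 67.6), Ptch1 (77.1 CPM, others 82.7 to 83.5), Igf2bp1 (2.34 CPM, others 3.62 to 3.68) and Zp4-ps (2.67 CPM, others 3.54 to 3.68). ED17.5 replicate 1 was the highest of its age for Tbpl2 (0.921 CPM, others 0.0854 to 0.163) and Atp5b (990.3 CPM, others 866 to 881). ED17.5 replicate 1 was the lowest of its age for Cpa3 (94.2 CPM, others 129.6 to 132). ED17.5 replicate 2 was the lowest of its age for Hif3a (66.2 CPM, others 77.8 to 78.8) and Col4a1 (678 CPM, others 761 to 773). ED17.5 replicate 3 was the highest of its age for Esr1 (136 CPM, others 94.6 to 98.2) and Fn1 (504 CPM, others 332 to 341). ED17.5 replicate 3 was the lowest of its age for Fgg (16.6 CPM, others 34.8 to 38.01).

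The change from ED17.5 to PND1 differed between cKO and control ovaries, by the interaction term of edgeR's quasi-likelihood test over 16 libraries (adjusted p under 0.05), for the 9 genes that follow, given as the log2 change in the cKO minus that in controls. The difference was 2.66 for Grik1 and 2.64 for Chodl, and -3.01 for Rasl10a. It was -1.76 for Rasal1, a RAS GTPase-activating protein, -1.65 for Rarres1, a retinoic acid responsive gene, and -1.56 for Trim50, of the TRIM family. Rasal1 did not pass without PND1 cKO replicate 3 (adjusted p = 0.0535). It was 2.61 for Nr1h4, the bile acid receptor gene, which did not pass under 13 of 19 alternatives. For Mpo and Ctsg, enzymes of granulocyte precursors, it was 8.55 and 8.02, and 16 and 14 of 20 alternatives ended the call. In the PND1 cKO libraries Mpo measured 3.45, 51.1, 121 and 44.8 CPM, so it varied widely within that group too.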

How the results depend on the processing

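Between the ages, 8381 genes changed in control ovaries. The count was 8348 with DESeq2 size factors, 8264 with DESeq2's Wald test, 9246 without the filter and 6926 within the libraries numbered 1 to 12. Within those numbered 13 to 24 it was 4301 (2347 rose, 1954 fell). Leaving out each library in turn gave 7504 to 8308 genes, with 3841 to 4243 rising and 3645 to 4065 falling. Of the 45 gene lists, 18 had a count of rises or falls that moved by over 1.5 times without 1 library, and 32 within 1 of the sets of library numbers. No gene called in both had the opposite sign under any of these settings. Of the 143 described genes that passed, 119 passed under every alternative that gave a value and 141 without each library. Taf4b and Upk3b, which did not pass, changed sign, at 0.21 for Taf4b within libraries 13 to 24 and 0.015 for Upk3b within libraries 1 to 12. The cause was not tested.

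The interaction with genotype called 364 genes, 281 higher and 83 lower in the cKO. DESeq2 size factors gave 187 higher and 114 lower, and DESeq2's Wald test gave 684 in all, 313 of them lower. Leaving out each library gave 127 to 499 genes, 85 to 260 of them higher and 35 to 272 lower. The cause was not tested.

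Same-numbered replicates of the ages did not deviate together (correlations of -0.07, -0.14, -0.16 and -0.10), and no ED17.5 library correlated best with its own number, so the numbers were not taken to pair the samples. With a replicate block 7918 genes changed and 345 passed the interaction. Of the described genes, Padi6 and Cyp11a1 lost their call with it (adjusted p = 0.0541 and 0.0519) and Esr1 gained one (adjusted p = 0.026). Of the 16 maternal-effect genes 14 rose with it, without Padi6 and Nlrp14 (adjusted p = 0.0675). Tdrkh, named above without a value, did not pass with the block (adjusted p = 0.138). The interactions of Mpo and Ctsg did not pass (adjusted p = 0.095 and 0.0749).

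The filter and the depth limit what can be seen of low genes: 3 counts correspond to 0.225 to 0.259 CPM. Pools hide the spread between animals, and the libraries do not separate cell types.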

Other observations

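Genes outside the lists, chosen after their values were seen, included further germ cell genes. Meioc, which prolongs meiotic prophase, measured 66.9, 89.2, 55.2 and 87.1 CPM at ED17.5 and 8.76, 5.78, 3.38 and 5.73 CPM at PND1 and fell by 3.66 ± 0.26 (adjusted p = 6.74e-06). Ccnb3, a cyclin of meiosis, measured 86.8, 141, 105 and 109.8 CPM at ED17.5 and 12.1, 10.3, 9.68 and 14.9 CPM at PND1 and fell by 3.24 ± 0.17 (adjusted p = 3.55e-07). Sycp2l, an oocyte relative of Sycp2, moved opposite to Sycp2: it measured 2.00, 0.732, 2.44 and 0.512 CPM at ED17.5 and 46.6, 35.4, 31.5 and 29.1 CPM at PND1 and rose by 4.62 ± 0.34 (adjusted p = 5.57e-06). The muscle and nerve genes Ttn, which encodes titin, and Nos1, the neuronal nitric oxide synthase, rose from 7.46 to 106 CPM (3.83 ± 0.17) and from 10.7 to 160.1 CPM (3.89 ± 0.22), without overlap. Of the 11 members of the skeletal muscle list, 5 passed the filter on low counts and all 5 fell. That count was 3 without PND1 replicate 3 or 4, and without ED17.5 replicate 1 or 3. A member that passed only through the ED17.5 libraries had to be lower at PND1, so these falls support nothing further. Mvp, the major vault protein, measured 29.7, 13.3, 24.6 and 16.2 CPM at ED17.5 and 335, 217, 205 and 183 CPM at PND1 and rose by 3.48 ± 0.32 (adjusted p = 9.94e-05).

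Hif3a, a hypoxia-inducible factor subunit that was not on the list of glycolysis and hypoxia genes, measured 78.7, 66.2, 77.8 and 78.0 CPM at ED17.5 and 11.0, 17.5, 15.4 and 15.2 CPM at PND1 and fell by 2.35 ± 0.12 (adjusted p = 6.81e-08). In the collagen and matrix list 5 of 25 genes rose and 11 fell, and within the libraries numbered 13 to 24 the rises were 2. Col18a1, a basement membrane chain, measured 393, 332, 437 and 363 CPM at ED17.5 and 804, 826, 869 and 785 CPM at PND1 and rose by 1.11 ± 0.08 (adjusted p = 6.61e-07), and Col4a1 went from 744 to 992 CPM (0.41 ± 0.06), whereas Fn1, fibronectin, fell from 379 to 174 CPM (-1.13 ± 0.16). Cd4, a surface protein of T cells, measured 0.537, 0.325, 1.26 and 0.256 CPM at ED17.5 and 4.92, 5.60, 4.28 and 4.55 CPM at PND1 and rose by 2.99 ± 0.35 (adjusted p = 2.20e-05); Cd3e, which defines T cells, had 15 counts at ED17.5 and 0 at PND1. A further 307 of the genes that rose are predicted models or clones, which the rule for named genes leaves out.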
